A study of Mus musculus with 8 samples.

Results

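Matrix metalloproteinases, their tissue inhibitors, the Adamts proteases, and the enzymes that hydroxylate and crosslink collagen were followed in the livers of mice given anti-miR-128-3p and of control mice. The members were picked by gene symbol (the Mmp, Timp, Adamts, Adamtsl, Lox, Plod and P4ha families, protein-coding genes), and 58 of the 30627 genes on the array were members. No measured value entered the symbol rule, but these families were chosen with earlier results of these data known. Of the 62 genes that the RefSeq annotation holds under these symbols, 4 (Adamts2, Loxl2, Mmp15 and Plod3) had no probe set assigned to that gene alone and are not analysed here. The study measured liver RNA on a whole-transcript Affymetrix array in 8 male C57BL/6 mice, each array being taken as 1 mouse. All 8 were on a high fat diet for 13 weeks, which was meant to make them hypercholesterolemic. In the first group, 4 mice were injected intraperitoneally 5 times with anti-miR-128-3p, which blocks the microRNA miR-128-3p. In the other group, 4 mice received a control injection whose content is uncertain, since the labels name it in different ways. A treatment field names miR-128-3p itself as the agent, and the groups here follow the titles and the design text, which name the inhibitor.

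The injected agent is directed against this mature microRNA, shown because it defines the treatment, with the seed (bases 2 to 8) in capitals. It is encoded by Mir128-1 on chromosome 1 and Mir128-2 on chromosome 9, and both hairpins give the same mature sequence (RefSeq, GRCm38.p6).
mmu-miR-128-3p: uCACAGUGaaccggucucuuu

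Collagen is first modified inside the cell, where prolyl hydroxylases (P4ha) stabilise its helix and lysyl hydroxylases (Plod) prepare the lysines that lysyl oxidases (Lox, Loxl) later join into crosslinks outside the cell. Matrix metalloproteinases are zinc enzymes, mostly secreted as inactive precursors, that cut collagens and other matrix proteins, and Timp proteins block them by binding their active site. In the liver, hepatic stellate cells make much of this machinery, above all when they turn into matrix-producing myofibroblasts, while neutrophils and macrophages carry metalloproteinases of their own.

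Values are RMA log2 signals, in which a step of 1 is a doubling, and differences are anti-miR-128-3p minus control with limma's standard error (SE). The median gene signal of the 8 arrays lay between 5.04 and 5.12, and arrays correlated across genes at r = 0.992 to 0.996. Negative control rows of the arrays, picked by their row names, had a median of 4.38 (mean over arrays). What their probes match was not examined, so this median is a reference level and no detection limit. Of the 58 members, 37 had a mean above that level and 21 did not, against 38.7% of all genes that did not. Shares of all genes, here and below, are of the 30627 genes, of which 19100 are protein-coding, whereas every member is. Those 21 members are kept in the counts below, sorted by the sign of their fitted difference. Where their values are given below, higher or lower describes the signal only, and no change in expression is read from it. The upper end of the negative control rows (95th percentile) was at 7.47, and 3 members (Mmp14, Mmp19 and Plod1) had a mean above it, so that Mmp2 and Loxl1 lay within the range of those rows. The arrays carried liver RNA by their markers: Alb was at 13.98, 13.92, 14.02 and 13.91 in anti-miR-128-3p livers and at 13.86, 13.97, 13.92 and 13.92 in control livers. The arrays are of whole liver, so more cells of a type and more RNA per cell cannot be told apart in any value below. Control replicate 1 stood apart in neutrophil genes and anti-miR-128-3p replicate 3 in collagen genes.

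None of the 58 members passed an adjusted p of 0.05 by limma with Benjamini-Hochberg adjustment over all 30627 genes, and neither did any other gene (0% called in either direction). At an unadjusted limma p under 0.05, 8 members differed in either direction, which is 13.8% of the members against 7.63% of all genes tested. Of these, 7 members were higher in anti-miR-128-3p livers and 1 was lower, which is 12.1% and 1.72% of the members, against 4.26% and 3.37% of all genes tested. The 7 were Mmp27, Mmp2, Loxl1, Adamts5, Lox, Adamts6 and Plod2, and the lower one was Adamts13. Of the 7, 4 had a signal above the negative control median (Mmp2, Loxl1, Adamts5 and Adamts6). The groups did not overlap in 4 members that were higher in anti-miR-128-3p livers (Mmp2, Loxl1, Lox and Mmp27), or 6.9% against 2.52% of all genes. They did not overlap in 1 that was lower (Mmp1b), or 1.72% against 1.89%. Of the 37 members above the negative control median, 2 were higher without overlap (Mmp2 and Loxl1) and 0 lower. The count of 7 was 3 (Mmp27, Mmp2 and Loxl1) without control replicate 1, without control replicate 3 or without control replicate 4. Without control replicate 1 and anti-miR-128-3p replicate 3 together it was 4 (Mmp27, Mmp2, Lox and Loxl1), and the count of lower members was 0. Most members differed little: the median difference was 0.00 for the members and -0.00 for all genes, and 40 of the 58 members differed by less than 0.1, or 69.0% against 73.7% of all genes.

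**Figure D1:**
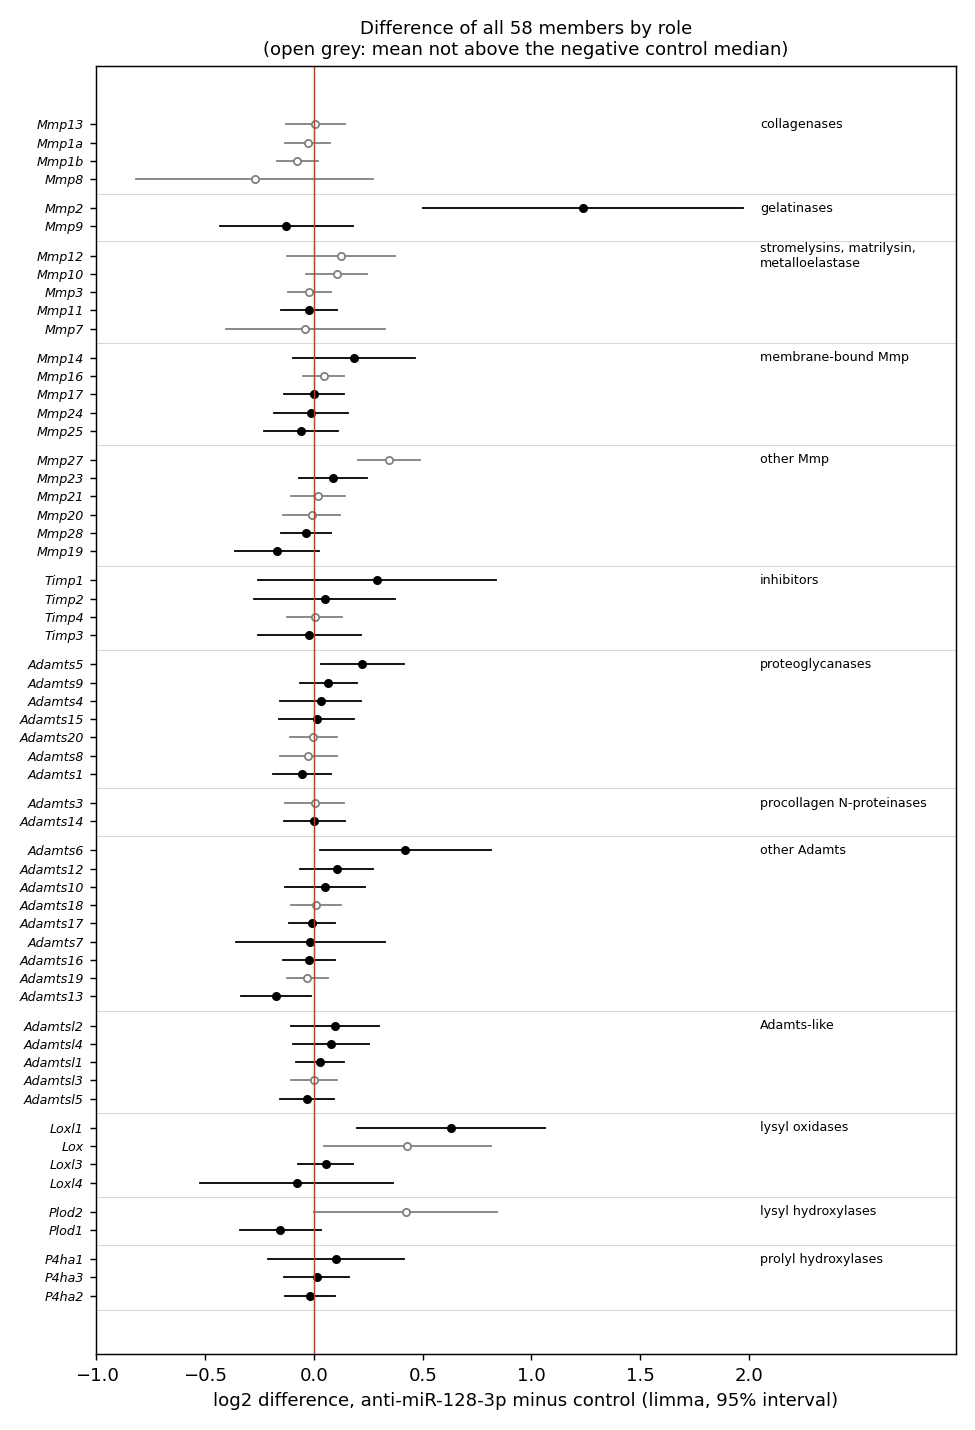
Log2 difference of each of the 58 members, anti-miR-128-3p minus control, with limma's 95% interval (horizontal lines), grouped by role. Mmp2 lies furthest right at 1.24, most other points lie within 0.1 of 0, and open grey points are the 21 members whose mean was not above the negative control median.

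Mmp2 encodes gelatinase A, which digests denatured collagen and basement membrane collagen and is made in liver mainly by stellate cells and fibroblasts. It had the largest difference of all members. Its log2 signal was 6.30, 6.53, 7.90 and 7.35 in anti-miR-128-3p replicates 1 to 4, against 5.71, 6.16, 5.53 and 5.73 in control replicates 1 to 4. All 4 anti-miR-128-3p livers were above all 4 control livers, and replicates 3 and 4 were well above the other 2. The difference was 1.24 ± 0.32 (log2 ± SE), or 2.36-fold, with a limma p of 0.00419 and an adjusted p of 0.346. Its exact two-sided permutation p was 0.0286, the smallest that 4 against 4 can give. Without anti-miR-128-3p replicate 3 the difference was 0.94 and without anti-miR-128-3p replicate 1 it was 1.48. The other gelatinase gene, Mmp9, which neutrophils and macrophages carry, was at 5.09, 4.90, 4.96 and 5.03 in anti-miR-128-3p livers and at 5.58, 5.02, 4.93 and 4.95 in control livers. Mmp9 overlapped between groups and its highest value was control replicate 1.

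Mmp2 is known to be activated at the cell surface by the membrane-bound metalloproteinase Mmp14, with Timp2 as the linking partner. Mmp14 was at 8.55, 8.75, 8.90 and 8.90 in anti-miR-128-3p livers and at 8.77, 8.78, 8.30 and 8.51 in control livers. The groups overlapped, and the difference of 0.18 ± 0.12 had a 95% interval of -0.10 to 0.46 (limma p = 0.171, adjusted p = 0.805, exact permutation p = 0.257). Without control replicate 3 the Mmp14 difference was 0.085. Timp2 was at 7.13, 7.25, 7.85 and 7.58 in anti-miR-128-3p livers and at 7.37, 7.54, 7.37 and 7.33 in control livers. Anti-miR-128-3p livers 3 and 4 were the highest of all 8 for Timp2 and livers 1 and 2 the lowest, so that the group difference was 0.05 ± 0.14 (95% interval -0.28 to 0.37). Without anti-miR-128-3p replicate 3 the Timp2 difference was -0.08. A difference as large as that of Mmp2 lies outside the intervals of both Mmp14 and Timp2.

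Among the other inhibitors, Timp1, an inducible inhibitor that rises in injured liver, had a difference that rested on 1 liver. Timp1 was at 4.51, 4.67, 5.79 and 5.14 in anti-miR-128-3p livers and at 4.77, 4.72, 4.80 and 4.66 in control livers. Replicates 3 and 4 of the anti-miR-128-3p group were above every control and replicate 1 was below every control, and the difference was 0.29 ± 0.24 (limma p = 0.260, adjusted p = 0.848, exact permutation p = 0.40). Without anti-miR-128-3p replicate 3 it was 0.034. Timp3, which is held in the matrix, differed by -0.02 ± 0.11, and Timp4 was not above the negative control median. No inhibitor had an unadjusted limma p under 0.05.

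Lysyl oxidases start the crosslinking of collagen and elastin, and the class had 2 of its 4 measured members among the 7. Lox, among these, had a mean not above the negative control median. Loxl1, best known for its role in elastic fibres, was at 5.71, 5.89, 6.66 and 6.43 in anti-miR-128-3p livers and at 5.43, 5.65, 5.49 and 5.62 in control livers. The groups did not overlap, the lowest anti-miR-128-3p value lying just above the highest control, and the difference was 0.63 ± 0.19, or 1.55-fold (limma p = 0.0094, adjusted p = 0.457, exact two-sided permutation p = 0.0286). Quantile normalization or centring of the arrays let the Loxl1 groups overlap. Lox, the founding member of the family, was at 4.31, 4.32, 5.17 and 4.58 in anti-miR-128-3p livers and at 4.21, 4.18, 4.12 and 4.14 in control livers. The control livers lay within a narrow band below the negative control median, and anti-miR-128-3p replicates 3 and 4 lay above that median. The fitted difference was 0.43 ± 0.17 (limma p = 0.0325, adjusted p = 0.601, exact permutation p = 0.0286), and 0.24 without anti-miR-128-3p replicate 3. Loxl3 differed by 0.05 ± 0.06. Loxl4 was at 6.52, 5.64, 5.64 and 5.65 in anti-miR-128-3p livers and at 5.89, 6.14, 5.75 and 5.99 in control livers. In Loxl4 the anti-miR-128-3p livers were below every control apart from replicate 1, which was above every control, and the difference was -0.08 ± 0.20. Without anti-miR-128-3p replicate 1 it was -0.30 (limma adjusted p = 0.685).

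Of the lysyl hydroxylase genes, 2 were measured. Plod2, whose enzyme hydroxylates the collagen ends from which stable crosslinks form, was at 4.18, 4.17, 5.03 and 4.79 in anti-miR-128-3p livers and at 4.16, 4.14, 4.02 and 4.17 in control livers. Replicates 3 and 4 of the anti-miR-128-3p group were high, and the other 2 lay at the level of the controls, which is under the negative control median. The fitted difference was 0.42 ± 0.19 (limma p = 0.0491, adjusted p = 0.651, exact permutation p = 0.0571), and 0.26 without anti-miR-128-3p replicate 3. Plod1, which acts on lysines of the collagen helix, was at 8.0, 8.04, 7.99 and 8.20 in anti-miR-128-3p livers and at 8.22, 8.13, 8.08 and 8.42 in control livers. All 4 anti-miR-128-3p values of Plod1 were below the control mean, with a difference of -0.15 ± 0.08 (limma p = 0.0939, adjusted p = 0.725, exact permutation p = 0.114), or -0.086 without control replicate 4. Prolyl hydroxylase gene P4ha1, a catalytic subunit, was at 6.47, 6.89, 7.05 and 7.12 in anti-miR-128-3p livers and at 6.58, 6.81, 6.82 and 6.92 in control livers. Its difference was 0.10 ± 0.14, but 0.24 without anti-miR-128-3p replicate 1, 0.044 without replicate 3 and 0.021 without replicate 4 of that group, and 0.033 without control replicate 1. P4ha2 differed by -0.02 ± 0.05 and P4ha3 by 0.01 ± 0.07.

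**Figure D2:**
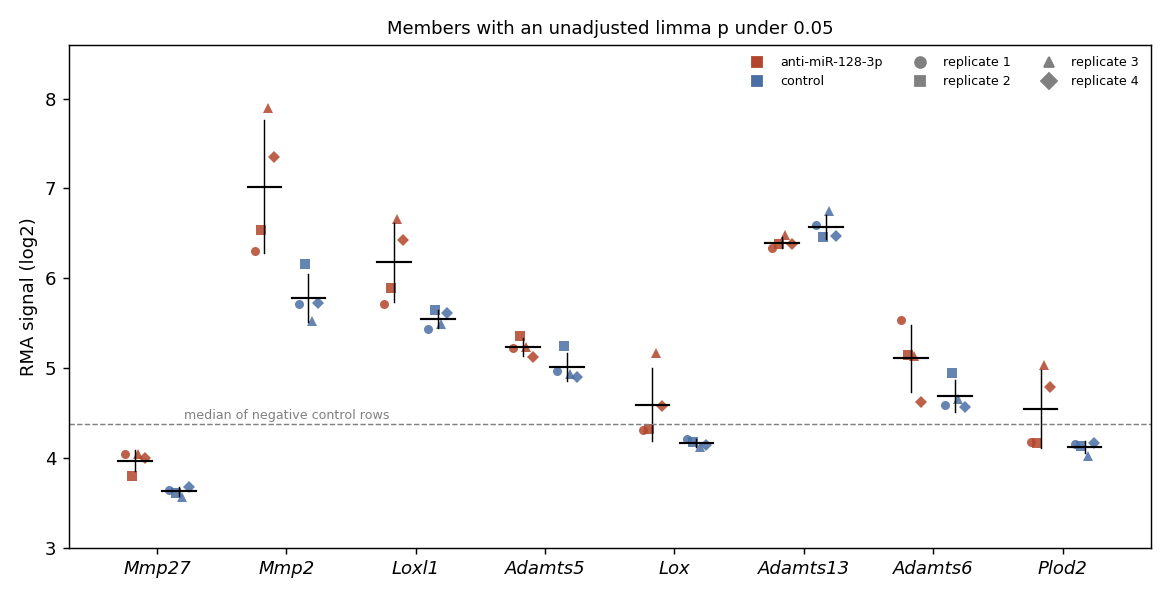
RMA log2 signal (vertical axis) of the 8 members with an unadjusted limma p under 0.05, by liver (symbols give the replicate), anti-miR-128-3p at left and control at right of each gene, with mean and SD (bars). In Mmp2, Loxl1, Lox and Plod2 the anti-miR-128-3p replicates 3 and 4 are the 2 highest of the 8 livers, and the dashed line marks the median of the negative control rows.

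Of the 18 Adamts proteases measured, 2 were higher and 1 was lower at an unadjusted limma p under 0.05. Adamts5, a protease of aggrecan and versican, was at 5.22, 5.36, 5.23 and 5.12 in anti-miR-128-3p livers and at 4.96, 5.24, 4.93 and 4.91 in control livers. Control replicate 2 lay among the anti-miR-128-3p values and the other 3 controls below them, and the difference was 0.22 ± 0.08 (limma p = 0.0259, adjusted p = 0.578, exact permutation p = 0.114). The other 6 proteoglycanase genes differed by -0.05 to 0.07. Adamts1, the one with the highest mean signal, was at 6.07, 6.16, 6.24 and 6.04 in anti-miR-128-3p livers and at 6.21, 6.26, 6.12 and 6.15 in control livers, with a difference of -0.05 ± 0.06.

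Adamts6, which is linked to fibrillin microfibrils, was at 5.53, 5.15, 5.13 and 4.62 in anti-miR-128-3p livers and at 4.59, 4.95, 4.65 and 4.56 in control livers. Here anti-miR-128-3p replicate 1 was the highest and replicate 4 lay among the controls, an order unlike that of Mmp2. The difference was 0.42 ± 0.17 (limma p = 0.0391, adjusted p = 0.622, exact permutation p = 0.0857), and 0.28 without anti-miR-128-3p replicate 1. Adamts13, the protease that trims von Willebrand factor and that stellate cells make in liver, was at 6.33, 6.38, 6.48 and 6.39 in anti-miR-128-3p livers and at 6.60, 6.45, 6.75 and 6.47 in control livers. All 4 anti-miR-128-3p values were below the control mean with a small overlap, and the difference was -0.17 ± 0.07 (limma p = 0.0370, adjusted p = 0.617, exact permutation p = 0.0857). Without control replicate 3 it was -0.11.

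Adamts7, a protease of cartilage oligomeric matrix protein, was at 6.62, 6.58, 6.25 and 6.48 in anti-miR-128-3p livers and at 6.38, 6.81, 6.70 and 6.11 in control livers, with a difference of -0.02 ± 0.15. The 2 procollagen N-proteinase genes measured, Adamts3 and Adamts14, differed by 0.00 ± 0.06 each. Adamts14 was at 5.81, 5.62, 5.88 and 5.81 in anti-miR-128-3p livers and at 5.85, 5.72, 5.77 and 5.77 in control livers. The 5 Adamts-like genes, whose products resemble these proteases without the catalytic domain, differed by -0.03 to 0.10. Adamtsl4, a fibrillin-binding protein, was at 7.0, 6.89, 7.03 and 7.09 in anti-miR-128-3p livers and at 7.02, 6.72, 7.03 and 6.92 in control livers, with a difference of 0.08 ± 0.08. In these classes the groups overlapped in every member.

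The classical collagenases and most stromelysins gave signals no brighter than the negative control rows. None of the 4 collagenase genes, Mmp8, Mmp13, Mmp1a and Mmp1b, had a mean above the negative control median. Mmp13, the main interstitial collagenase of rodents, differed by 0.01 ± 0.06. Mmp1b was at 2.83, 2.83, 2.77 and 2.82 in anti-miR-128-3p livers and at 2.91, 2.85, 2.93 and 2.87 in control livers, so its groups did not overlap at signals far below the negative control median (limma p = 0.0978, adjusted p = 0.732, exact permutation p = 0.0286). Among the stromelysins, matrilysin and metalloelastase, 1 of 5 genes was above that median, Mmp11, at 5.17, 4.97, 5.09 and 5.16 in anti-miR-128-3p livers and at 5.11, 5.20, 5.10 and 5.07 in control livers. Its difference was -0.02 ± 0.06. Mmp12, the macrophage elastase, was at 3.39, 3.38, 3.84 and 3.42 in anti-miR-128-3p livers and at 3.31, 3.48, 3.25 and 3.49 in control livers, so replicate 3 of the anti-miR-128-3p group was its highest value as well.

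Among the other metalloproteinases, Mmp19 was at 8.30, 8.63, 8.56 and 8.59 in anti-miR-128-3p livers and at 8.76, 8.61, 8.58 and 8.81 in control livers. Its groups overlapped, and the difference was -0.17 ± 0.09 (limma p = 0.0760, adjusted p = 0.707, exact permutation p = 0.171), or -0.10 without anti-miR-128-3p replicate 1. Mmp27 had the smallest p of all members. It was at 4.04, 3.80, 4.04 and 4.00 in anti-miR-128-3p livers and at 3.65, 3.61, 3.57 and 3.68 in control livers, with no overlap, a difference of 0.34 ± 0.06 and a limma p of 0.000415 (adjusted p = 0.206, exact two-sided permutation p = 0.0286). All 8 of these values lay below the negative control median, so no change in expression is read from them. Mmp23 differed by 0.09 ± 0.07, Mmp28 by -0.04 ± 0.05, and Mmp20 and Mmp21 were not above the negative control median. The membrane-bound genes Mmp17, Mmp24 and Mmp25 differed by -0.06 to 0.00, and Mmp16 was not above the negative control median.

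Promoter sequence was set beside these signals. RefSeq promoter windows of 300 bases (250 before and 50 after the gene start, GRCm38.p6) matched 39 of the 58 members, among them 2 of the 8 with an unadjusted limma p under 0.05 (Adamts13 and Mmp27). The windows were searched on both strands for TGANTCA, the site of the transcription factor AP-1, for TATAAA, the TATA box, and for GGGCGG, the GC box. AP-1 letters were in 7 of the 39 windows, or 17.9% against 7.93% of 27025 genes with a window. Those 27025 genes were not limited to protein-coding genes, whereas the members were, so the shares are of unlike sets. The TATA box was in 13, or 33.3% against 14.2%, and the GC box in 24, or 61.5% against 35.9%. The 7 genes with AP-1 letters (Mmp3, Mmp7, Mmp10, Mmp13, Mmp1a, Mmp1b and Mmp20) also held a TATA box, and none of them was above the negative control median. Of the 24 with a GC box, 20 were above it. The shares for all genes with these motifs are not given here, so neither count is read as particular to the members. All 7 belong to the 10 Mmp members on chromosome 9, none of which was above the negative control median. The windows below run from 110 bases before to 10 bases after the start and are shown to contrast 4 genes of the first kind with Timp2 and Mmp14, with matches on either strand in capitals and no overlap between matches.
Mmp3 (chr9:7445712-7445831, plus strand): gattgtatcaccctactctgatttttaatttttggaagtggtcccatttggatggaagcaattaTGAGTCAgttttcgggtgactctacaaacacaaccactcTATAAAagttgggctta
Mmp10 (chr9:7502232-7502351, plus strand): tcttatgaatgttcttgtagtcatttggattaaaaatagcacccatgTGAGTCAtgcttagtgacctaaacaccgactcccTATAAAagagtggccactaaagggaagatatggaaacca
Mmp13 (chr9:7272404-7272523, plus strand): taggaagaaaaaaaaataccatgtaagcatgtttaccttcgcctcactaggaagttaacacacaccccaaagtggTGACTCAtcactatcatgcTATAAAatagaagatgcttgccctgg
Mmp1a (chr9:7464031-7464150, plus strand): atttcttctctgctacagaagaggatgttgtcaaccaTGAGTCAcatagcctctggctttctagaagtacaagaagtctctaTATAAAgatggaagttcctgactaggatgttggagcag
Timp2 (chr11:118355402-118355521, minus strand): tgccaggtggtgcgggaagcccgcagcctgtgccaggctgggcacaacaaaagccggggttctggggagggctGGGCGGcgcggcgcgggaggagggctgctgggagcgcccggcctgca
Mmp14 (chr14:54431488-54431607, plus strand): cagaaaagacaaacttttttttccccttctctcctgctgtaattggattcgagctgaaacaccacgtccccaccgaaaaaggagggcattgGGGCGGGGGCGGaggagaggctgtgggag

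In these windows the AP-1 letters stood upstream of the TATA box in all 4 chromosome 9 genes, while the Timp2 and Mmp14 windows held GC boxes and neither of the other motifs. Such matches are letters only, and whether a factor binds there was not measured. Among the genes of AP-1 subunits themselves, of 6 measured (Junb is not analysed here), 0 had an unadjusted limma p under 0.05, and the median difference was -0.02. Jun was at 7.03, 7.12, 6.98 and 7.13 in anti-miR-128-3p livers and at 6.84, 8.16, 8.05 and 7.10 in control livers, with control replicates 2 and 3 high and a difference of -0.47 ± 0.28.

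The livers differed among themselves in a shared way. Anti-miR-128-3p replicate 3 held the highest of the 8 values in 18 members, or 31.0% against 9.02% of all genes. Control replicate 1 held the highest value in 16 members, or 27.6% against 16.6% of all genes. Anti-miR-128-3p replicate 2 held the lowest value in 15 members, or 25.9% against 13.9%. In 16 members, or 27.6% against 2.55% of all genes, anti-miR-128-3p replicates 3 and 4 were both above the other 6 livers, a count made after these 2 livers were seen to be high. The 16 were Mmp2, Mmp10, Mmp14, Mmp23, Timp1, Timp2, Lox, Loxl1, Loxl3, Plod2, P4ha1, Adamts9, Adamts12, Adamtsl1, Adamtsl2 and Adamtsl4. Of these, Mmp2, Loxl1, Lox and Plod2 are among the 7 members named above, and the other 12 had no unadjusted limma p under 0.05. Lox, Plod2 and Mmp10 had a mean not above the negative control median. In Timp1 and Timp2, for instance, replicate 1 of the anti-miR-128-3p group was the lowest of the 8 livers.

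**Figure D3:**
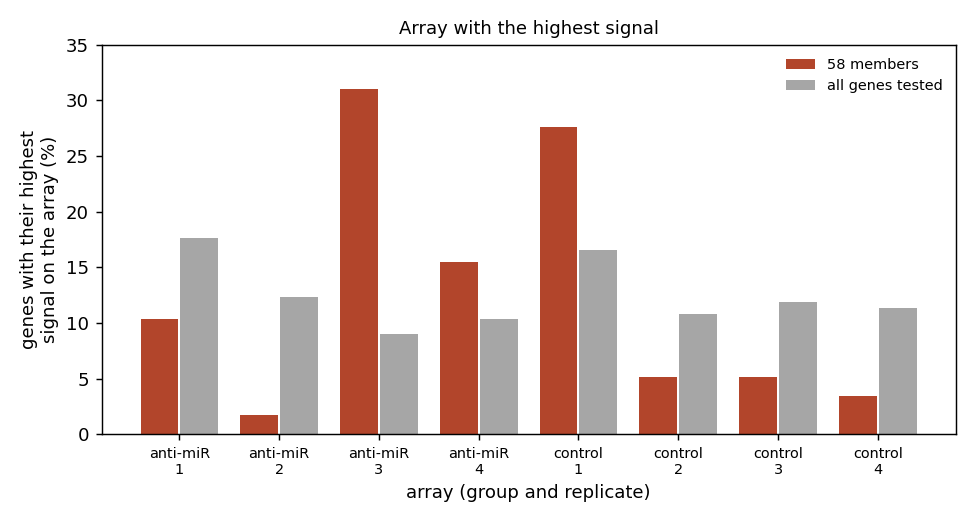
Share of genes (vertical axis, percent) whose highest signal was on each array (horizontal axis), for the 58 members and for all 30627 genes. Anti-miR-128-3p replicate 3 held 31.0% of the members against 9.02% of all genes, and control replicate 1 held 27.6% against 16.6%.

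Collagens, the substrates of these enzymes, were read in the same livers. Of 14 fibrillar and network collagen genes, 10 were higher and 1 was lower at an unadjusted limma p under 0.05. Of all genes tested, 4.26% were higher and 3.37% lower. The collagens had a median difference of 0.32, and 0 passed the adjustment over all genes. This pattern was known from earlier results of these data. Col1a1, which encodes part of type I collagen, was at 8.09, 7.65, 9.96 and 8.68 in anti-miR-128-3p livers and at 6.99, 7.0, 6.88 and 7.01 in control livers, the same order of anti-miR-128-3p livers 3 and 4 at the top as in Mmp2. Col6a1 differed by 0.45 ± 0.11, Col3a1 by 1.22 ± 0.35 and Col6a2 by 0.38 ± 0.11. Anti-miR-128-3p replicates 3 and 4 were both above the other 6 livers in 9 of the 14 collagen genes. Without anti-miR-128-3p replicate 3, 8 of the 14 were higher and 0 lower at an unadjusted limma p under 0.05, with a median of 0.23, and Col1a1 differed by 1.17, Col3a1 by 0.87, Col6a1 by 0.36 and Col6a2 by 0.28.

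Partners of collagen processing, 19 genes, had 3 members higher and 0 lower at an unadjusted limma p under 0.05 and a median difference of 0.01. Of all genes tested, 4.26% were higher and 3.37% lower at that p. Sparc, a collagen-binding matricellular protein, differed by 0.71 ± 0.29, the collagen chaperone gene Serpinh1 by 0.21 ± 0.09, and the small proteoglycan gene Lum by 0.74 ± 0.32. Pcolce, an enhancer of procollagen processing, differed by 0.12 ± 0.06 with a limma p of 0.0830. Without anti-miR-128-3p replicate 3, 0 of the 19 were higher and 1 was lower, and Sparc differed by 0.46, Serpinh1 by 0.12 and Lum by 0.40. The plasminogen system and other matrix proteases, 17 genes measured of 20 listed, had a median of 0.03. Here 1 member was higher, near the share of 4.26% of all genes, and 0 were lower. That member was the lysosomal protease gene Ctss, which macrophages express, with a difference of 0.72 ± 0.30, while the plasminogen activator gene Plat differed by 0.19 ± 0.10, Adam9 by -0.11 ± 0.06 and Ctsl by 0.15 ± 0.09. When anti-miR-128-3p replicate 3 was left out, 0 of the 17 were higher, and Ctss differed by 0.55 and Plat by 0.085. Genes of TGF-beta, the cytokine that drives matrix production, had 2 of 16 measured members higher and 3 lower, against 4.26% and 3.37% of all genes. Tgfb3 differed by 0.38 ± 0.14 and Ltbp2 by 0.33 ± 0.12, whereas Ltbp4 differed by -0.34 ± 0.12 and Tgfbi by -0.21 ± 0.08. With that liver left out again, 2 were higher and 2 lower, with Tgfb3 at a difference of 0.24 and Ltbp2 at 0.21.

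**Figure D4:**
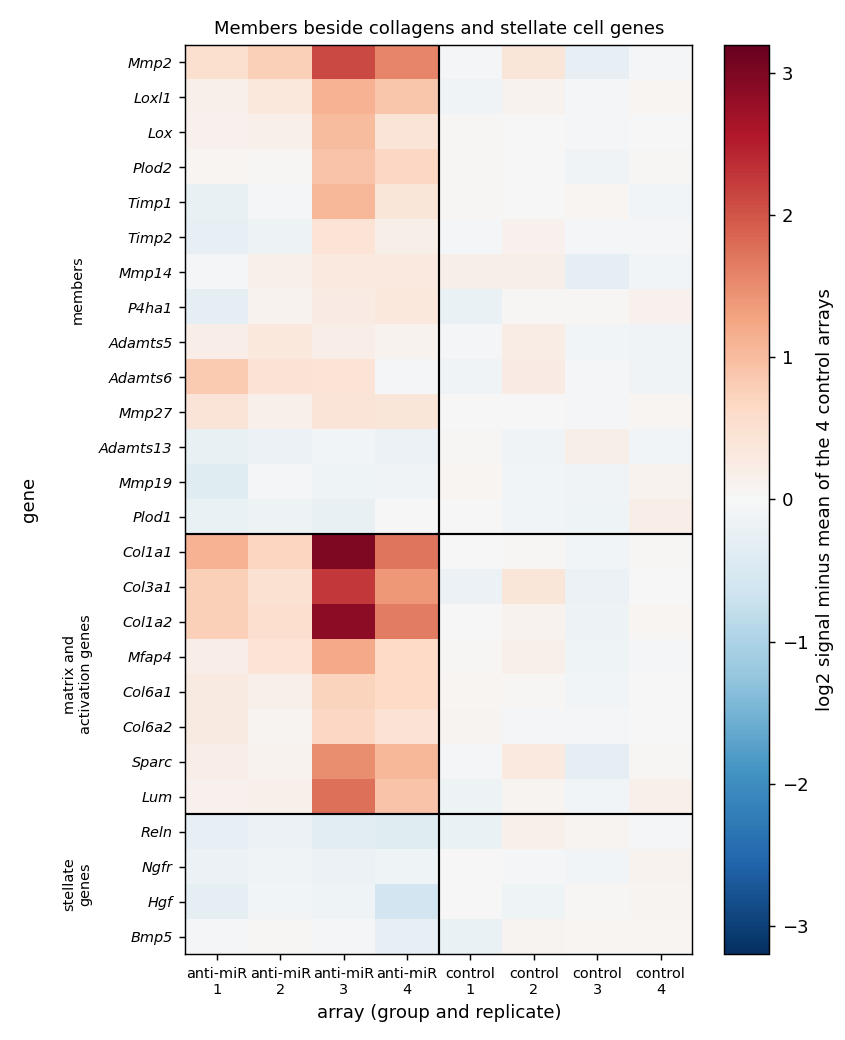
Log2 signal minus the mean of the 4 control arrays (colour) for 14 members, 8 matrix and activation genes and 4 stellate cell genes (rows) on each array (columns). The stellate cell genes shown (Reln, Ngfr, Hgf and Bmp5) include the 3 markers lower at an unadjusted limma p under 0.05. Of all 11 stellate cell markers measured, 5 were higher and 6 lower by value. Anti-miR-128-3p replicates 3 and 4 are the reddest columns for Mmp2, Loxl1, Plod2 and the collagens, while Adamts6 is highest in anti-miR-128-3p replicate 1.

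Cell type markers were read on the same arrays, and their part in the results above was not tested. Markers of activated stellate cells and myofibroblasts were higher in anti-miR-128-3p livers by value in 10 of 10 measured genes, with a median difference of 0.69. At an unadjusted limma p under 0.05, 6 of them were higher, against 4.26% of all genes. The list of activated markers shares Col1a1, Col1a2 and Col3a1 with the collagens and Lum with the collagen partners. Their summed level, the mean over genes of the signal minus the gene's mean, ran from -0.22 to 1.39 in anti-miR-128-3p livers and from -0.55 to -0.26 in control livers. It was 1.39 in replicate 3 and 0.56 in replicate 4 of the anti-miR-128-3p group. Without replicate 3 of that group the median difference of these markers was 0.41, with 10 of 10 higher by value and 5 at an unadjusted limma p under 0.05. A separate list of stellate cell markers did not share that shift: 5 of 11 were higher and 6 lower by value. In that list 3 were lower at an unadjusted limma p under 0.05 (Reln, Ngfr and Hgf), against 3.37% of all genes. The summed level of the 11 ran from -0.05 to 0.02 in anti-miR-128-3p livers and from -0.07 to 0.17 in control livers. All 10 and all 11 of these markers were above the negative control median. Macrophage and Kupffer cell markers were higher by value in 11 of 12, and their summed level ran from -0.33 to 0.73 in anti-miR-128-3p livers and from -0.90 to 0.10 in control livers.

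Mmp8, the collagenase of neutrophil granules, was at 3.62, 3.63, 3.69 and 3.69 in anti-miR-128-3p livers and at 4.80, 3.65, 3.59 and 3.68 in control livers. Control replicate 1 stood alone above the negative control median, and the other 7 livers lay close together beneath it. The difference of -0.27 ± 0.24 became 0.02 without that liver. Mmp9 was highest in the same liver, and so was Mmp25, a membrane-bound enzyme of leukocytes, by a small margin. Of 12 neutrophil markers, Mmp8 being one, 9 were above the negative control median and Retnlg, Ngp and Mmp8 were not. The summed neutrophil level ran from -0.39 to -0.01 in anti-miR-128-3p livers. Among the controls it was 1.47 in replicate 1 and between -0.48 and -0.11 elsewhere. Elane, a granule elastase gene, was at 4.54, 4.18, 4.48 and 4.50 in anti-miR-128-3p livers and at 5.52, 4.41, 4.39 and 4.46 in control livers.

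**Figure D5:**
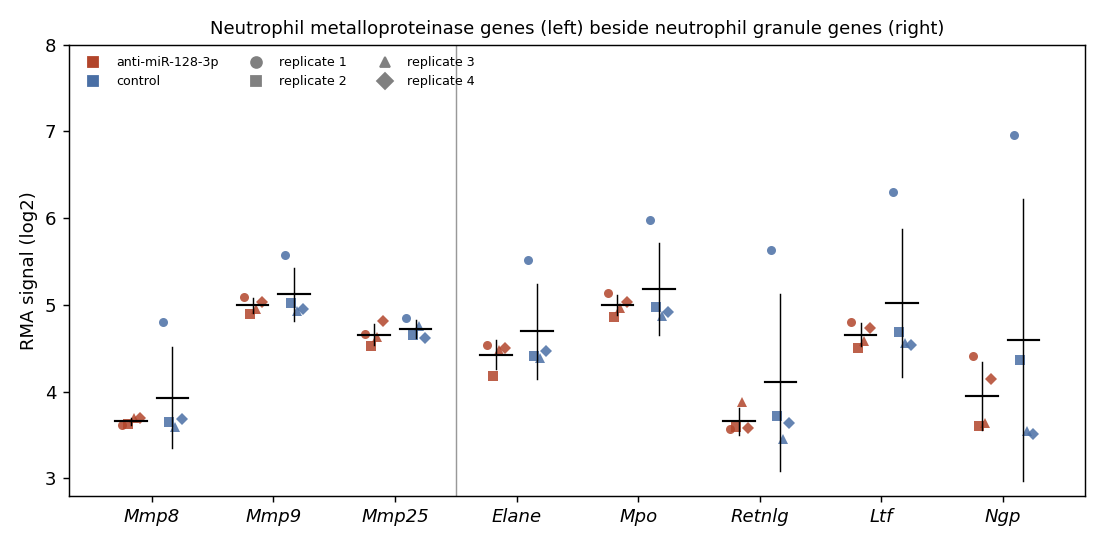
RMA log2 signal (vertical axis) of 3 metalloproteinase genes of neutrophils and leukocytes (left of the line) and 5 neutrophil granule genes (right), by liver, anti-miR-128-3p at left and control at right of each gene, with mean and SD (bars). Control replicate 1 is the highest point in every gene, at 4.80 in Mmp8 and 6.96 in Ngp.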

How the data were processed

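The authors deposited a table of log2 values made with RMA, which corrects background, equalises the distribution across arrays and summarises probes, per the submitters' processing notes. The sources used here state neither the software version nor any filter, and no detection call accompanies the values. Of 72688 rows, 6732 array control rows were left out. Of the 65956 transcript probe sets, the platform annotation, with symbols updated through a RefSeq table (GRCm38.p6, names only), assigned 31080 to exactly 1 gene, giving 30627 genes. A gene was represented by its brightest probe set (mean of the 8 arrays), and each member had 1 probe set. RMA signals near background compress differences, and levels are not compared between genes. The number of arrays limits the precision.

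Differences were fitted with limma 3.58.1 in R 4.3.3 (lmFit, eBayes, two-sided, no covariate, no filter on dim genes), with Benjamini-Hochberg adjustment over all 30627 genes. Single genes also had an exact permutation test over 70 assignments. The fit was tested on simulated data. Tables used pandas 2.3.3 under Python 3.11.15, and plots matplotlib 3.10.9. The members, lists and tests were chosen with earlier results of these data known. Described in full were members with an unadjusted p under 0.05, those whose groups did not overlap, and in each role class the one with the highest mean, with up to 3 further examples per class and up to 4 genes per further list by smallest p. Genes named outside that rule (Alb, Elane, Ngp, Timp and Mmp genes beside them) were chosen after their values were seen. Replicates share numbers between groups, but same-numbered livers did not deviate together (r of -0.12 to -0.02 over 4 pairs), so no block was used. Alternatives were trended and robust moderation, array weights, a filter at the median level, the mean of probe sets, quantile normalization, median centring, the replicate block, and leaving out each array.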

Additional observations from a re-analysis of the deposited data

Results flagged for a closer look

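Within groups of 4 livers, 42 sets of values were examined for a single liver far from the others by Dixon's test, and 3 were found, where chance gives about 1 in 20. Mmp27 in anti-miR-128-3p replicate 2 was at 3.80, below 4.00 in the nearest other liver of its group, all under the negative control median. Mmp8 in control replicate 1 was at 4.80, against 3.68 in the nearest other control. Loxl4 in anti-miR-128-3p replicate 1 was at 6.52, against 5.65 in the nearest other liver of its group.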

How the results depend on the processing

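No member passed the adjusted threshold under any of the 16 alternatives. Limma called 0 genes in all, 2337 at an unadjusted p under 0.05, and 0 to 1 without each array in turn (1 without control replicate 4, Irgm1, no member), with 1718 to 2608 at an unadjusted p. Members higher at an unadjusted p numbered 7, and 3 to 7 without each array, 3 after removal of genes under the median signal (where 25 members were tested and 1512 genes passed in all), and 4 without control replicate 1 and anti-miR-128-3p replicate 3 together. Members lower numbered 1, and 0 to 1 without each array, 0 without that pair, and 2 (Plod1 and Adamts13) with the replicate block. The single lower member was Loxl4 without anti-miR-128-3p replicate 1, and Plod1 without anti-miR-128-3p replicate 4 or control replicate 3. It was Adamts13 without anti-miR-128-3p replicate 3, control replicate 2 or control replicate 4. Higher members without overlap numbered 4 to 7 without each array and 2 with dim genes left out. Lower ones numbered 1 to 2, 0 with dim genes left out, and 2 with arrays centred or without that pair. The members' median was -0.01 to 0.03 without each array. With the replicate block Mmp2 had an adjusted p of 0.548 by limma, and no liver correlated best with its own number; same-numbered livers share only a number. The 7 higher members became 6 with the block, with trended and robust moderation and with quantile normalization (without Plod2 in each), 6 with array weights (without Adamts6) and 5 with centring (without Plod2 and Adamts5). The sign held in every alternative, leaving out arrays included, for 15 of the 21 members described in full. Adamts14 turned to -0.025 with quantile normalization, -0.0091 with centring and -0.0094 without that pair, and ran from -0.032 to 0.056 without each array. Without that pair Mmp8 was 0.0054, P4ha1 -0.023, Timp2 -0.094 and Adamts7 0.019. Without each array Mmp8 ran from -0.38 to 0.016, Timp2 from -0.082 to 0.16, Adamts7 from -0.15 to 0.086 and Mmp11 from -0.046 to 0.020. The cause was not tested. Signals of the 21 dim members limit what can be read from them.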

Other observations

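Other liver cell types gave values that belong to no comparison above. Sinusoidal endothelial markers were lower by value in 9 of 10 genes, with a median log2 difference of -0.25. Of them, 3 were lower at an unadjusted limma p under 0.05 (Clec4g, Stab1 and Tek), against 3.37% of all genes. Hepatocyte markers were lower by value in 6 of 7 genes with a median of -0.03, and Hnf4a, a hepatocyte transcription factor gene, differed by -0.24 ± 0.10. Portal fibroblast markers had a median of 0.05 with 0 of 7 at an unadjusted limma p under 0.05, cholangiocyte markers -0.03 with 0 of 6, and lymphocyte markers 0.03 with 0 of 6. Among 5 mesothelial markers the median was 0.01. Wt1 differed by 0.18 ± 0.07 without overlap between groups, where 2.52% of all genes were higher without overlap. Of the 5, 1 was higher at an unadjusted limma p under 0.05, and 0 without anti-miR-128-3p replicate 3.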
